A study of Homo sapiens with 4 samples.

Results

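The regions described here are the broad ONECUT2 peaks of 22Rv1, a human cell line derived from a prostate carcinoma xenograft. ONECUT2 occupancy was mapped by chromatin immunoprecipitation followed by sequencing (ChIP-seq), in which DNA cross-linked to a protein is pulled down with an antibody, sequenced and set against input DNA from the same kind of chromatin. The series holds 2 ChIP libraries made with a rabbit antibody to ONECUT2 and 2 libraries of input DNA, all from 22Rv1 cells in serum-containing medium, and the labels name no treatment and no other genotype. A broad peak was defined as a replicate 1 peak on chromosomes 1 to 22 of at least 1000 bp that shares at least 1 bp with a replicate 2 peak of at least 1000 bp. The rule was met by 731 of the 14013 replicate 1 peaks on these chromosomes (5.22%) and of 14431 in the whole list. They made up 10.3% of the 7127 replicate 1 peaks that overlap any replicate 2 peak. Of the rest of these replicated peaks, 5454 were under 1000 bp in both lists and are called narrower here, and 942 were wide in 1 list only.

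As background, ONECUT2 belongs to a family of transcription factors that bind DNA through a cut domain together with a homeodomain. The family is known from liver, pancreas and nervous system development, and ONECUT2 has been studied in castration-resistant prostate cancer as a factor that works against the androgen receptor programme. A sequence-specific factor typically gives a compact peak around its site. A wide called interval is a property of the signal, and peak lists alone do not tell how many bound sites it holds.

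The peak caller, MACS2, reports as a peak the stretch over which the ChIP signal stays past its threshold, so width and height are read from the same signal. The members were chosen by their width in both lists, and fold enrichment, fragment numbers and IDR membership come from the same libraries. All differences between broad and narrower peaks are therefore given as a description with no test. With 2 libraries, a two-sided exact sign-flip permutation test cannot go below p = 0.5. Whether separate cultures were used is not stated in the labels, and the spread between the ChIP libraries may be technical.

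Broad peaks had a median width of 1566 bp in replicate 1 and 1422 bp in replicate 2, against 412 and 344 bp for narrower replicated peaks. Their width ran from 1007 to 5511 bp in replicate 1 and from 1001 to 7266 bp in replicate 2. Most lay near the lower end, with 462 members between 1000 and 1500 bp in the narrower of their 2 lists. Both lists gave at least 1500 bp at 269 members (36.8%, exact Clopper-Pearson 95% interval 33.3% to 40.4%), at least 2000 bp at 115, at least 3000 bp at 34 and at least 4000 bp at 9. Such intervals allow for counting error alone, as peaks near each other are not independent.

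**Figure D1:**
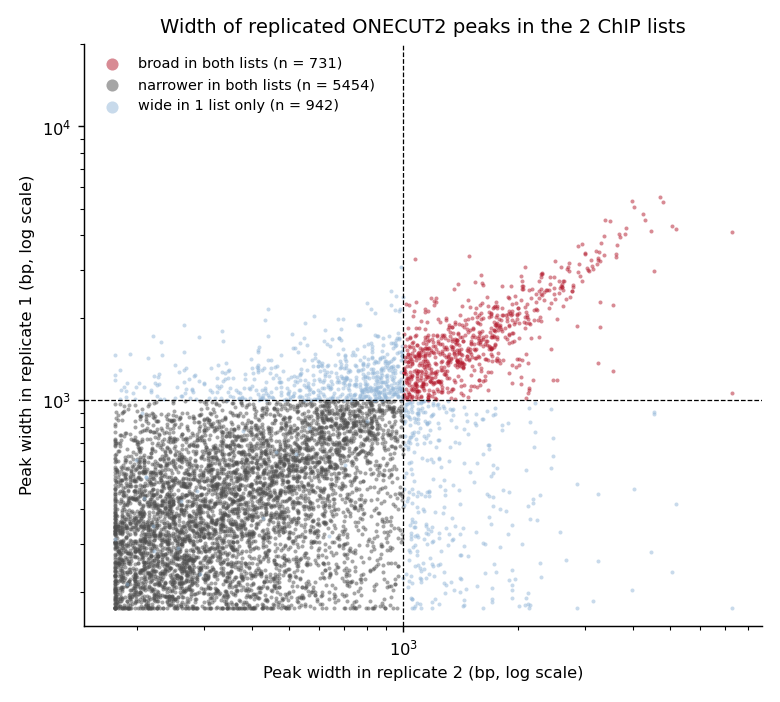
Width of each replicated peak in replicate 2 (x axis, bp, log scale) and replicate 1 (y axis, bp, log scale), 1 point per replicate 1 peak with the replicate 2 peak that it is paired with. Dashed lines mark 1000 bp. The 731 broad peaks lie in the upper right corner of the plot and reach 5511 bp in replicate 1 and 7266 bp in replicate 2.

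The extent of a broad peak was similar in the 2 libraries, in part by the rule, which leaves out peaks wide in 1 list only. Widths were within 1.5-fold of each other at 663 of 731 members and over 2-fold apart at 12. The log2 width ratio between the lists had an SD of 0.35 over broad peaks and 0.80 over narrower peaks. The edges of the 2 peaks differed by a median of 131 bp on the left and 134 bp on the right, and a median of 88.3% of the replicate 1 width and 97.5% of the replicate 2 width was shared. Replicate 1 gave the wider peak at 483 members (66.1%), near the 62.2% among all replicated peaks. Both edges lay further out in replicate 1 at 264 members and further out in replicate 2 at 87. Spearman's rho of width between the lists was 0.65 over the 731 members. This is a description of peaks that share libraries and may share input, within a range that the rule truncates.

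The 10 widest members by mean width lay on chromosomes 22, 16, 11, 13, 4 and 19 (positions in hg19). The widest, on chromosome 22 from 31370881 to 31374993, was 4113 bp in replicate 1 and 7266 bp in replicate 2. It was low in fragments, with 46 and 40 ChIP fragments at the summit over the smallest background of each list and fold enrichments of 8.75 and 6.98. Fold enrichment, as deposited by the authors, divides the ChIP signal at the summit by the input background around it, and fragments are the whole number behind it, recovered as described under the processing. The same 7266 bp peak of replicate 2 also covered a member from 31369352 to 31370411, 1060 bp wide in replicate 1, and reached into another from 31363884 to 31369232. This last member, itself among the 10 widest at 5349 bp in replicate 1 and 3982 bp in replicate 2, was taller, with 151 and 112 fragments. Together these 3 members spanned 11.1 kb.

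The others of the 10 widest were tall. The peak on chromosome 16 from 56225570 to 56231080 was 5511 bp in replicate 1 and 4726 bp in replicate 2, with a fold enrichment of 16.3 ± 2.58 (SD, n = 2). Another on this chromosome, from 14011960 to 14016764, reached 16.1 ± 2.83 (SD, n = 2) at widths of 4805 and 4241 bp. Chromosome 11 held a peak from 63604412 to 63609689 with a fold of 16.4 ± 1.73 (SD, n = 2), whose summits in the replicates lay 10 bp apart. These 3 summits thus stood at a similar height, with 226 to 290 fragments each. The other chromosome 11 peak, from 1408197 to 1413264, reached 10.2 ± 0.359 (SD, n = 2). The peaks on chromosome 13 from 107218957 to 107223178 and from 44714226 to 44718557 reached 12.5 ± 0.737 and 10.7 ± 0.675 (SD, n = 2 each), in that order, and both were wider in replicate 2 than in replicate 1. The peak on chromosome 4 from 1037940 to 1042502 held 253 fragments in each replicate over a background of 28.9 and 32.2, so its fold enrichment was only 8.07 ± 0.595 (SD, n = 2). The last, on chromosome 19 and spanning 59067738 to 59071876, reached 11.1 ± 0.929 (SD, n = 2).

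**Figure D2:**
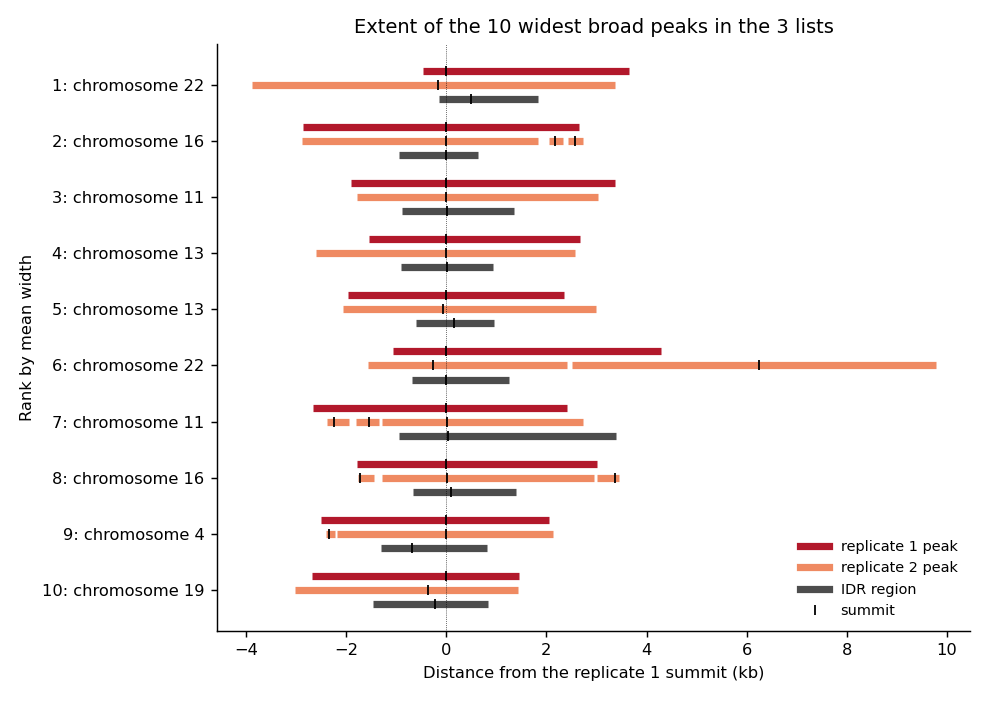
Extent of the 10 widest broad peaks (rows, ranked by mean width over the 2 lists) in replicate 1, in replicate 2 and in the IDR list, as distance from the replicate 1 summit (x axis, kb). Bars are called intervals and black ticks their summits. The IDR region is shorter than the replicate 1 peak in all 10 rows, and replicate 2 has more than 1 peak under 5 of them.

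The number of summits inside a broad peak could not be read directly, because the lists give 1 summit per peak. Each of the 14013 intervals of replicate 1 and the 11677 of replicate 2 on these chromosomes stands in its list once. Neighbouring peaks of a list were never closer than 50 bp. The other list was therefore used, as the number of replicate 2 peaks under a replicate 1 peak. An overlap of 1 bp was enough, so this number includes peaks that only reach an edge. A wider interval also meets more peaks by its length, so the number is not a count of inner summits. At 583 members there was 1 replicate 2 peak, at 118 there were 2, at 26 there were 3, at 3 there were 4 and at 1 there were 5. More than 1 was found at 148 broad peaks (20.2%, interval 17.4% to 23.3%), against 369 narrower peaks (6.77%, interval 6.11% to 7.46%) and 11.3% of all replicated peaks. Peaks wide in 1 list only had the highest share, at 288 of 942 (30.6%, interval 27.6% to 33.6%). By width in the narrower list, more than 1 was found at 92 of 462 broad peaks from 1000 to 1500 bp (19.9%), 27 of 154 from 1500 to 2000 bp (17.5%), 15 of 81 from 2000 to 3000 bp (18.5%) and 14 of 34 of at least 3000 bp (41.2%). The share thus stayed below 20.2% up to 3000 bp and was higher in the widest class.

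The member with 5 replicate 2 peaks under it, singled out after its value was seen, lay on chromosome 19 from 50547499 to 50550767 and was 3269 bp wide in replicate 1. Its replicate 2 partner was 1073 bp wide, with fold enrichments of 5.66 and 5.71 in replicates 1 and 2. Overlap with more than 1 peak also ran the other way. In 6 cases 1 wide replicate 2 peak overlapped more than 1 member, and 12 members shared their replicate 2 partner, so the 731 members had 725 different partners.

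Summits of broad peaks mostly lay near each other in the 2 libraries and near the middle of the peak. The median distance between the replicate 1 and replicate 2 summits was 29 bp (interval 26 to 34 bp), against 84 bp in narrower peaks. The summits lay within 100 bp of each other at 570 of 731 broad peaks (78.0%) and at 3059 of 5454 narrower peaks (56.1%), with 57.1% among all replicated peaks. Among peaks of like height the medians lay closer together or turned round. They were 85, 58, 29 and 18 bp in broad peaks with a mean fold below 4, from 4 to 6, from 6 to 10 and from 10 upward, against 93, 70, 32 and 13 bp in narrower peaks. From 30 to 50 fragments the median was 134 bp in 94 broad peaks, against 87.5 bp in narrower peaks, from 50 to 100 fragments 51 against 45 bp, and from 100 to 150 fragments 15 against 17.5 bp. Below 30 fragments it was 622 bp in 8 broad peaks, against 106 bp in narrower peaks, and from 150 upward 16 bp, against 4.50 bp in 4 narrower peaks. The position was identical at 10 members. The summit fell between 33.3% and 66.7% of the width at 75% of broad peaks in replicate 1 and 72.4% in replicate 2, against 55.5% and 53.9% of narrower peaks. It fell in the outermost 10% on either side at 4 broad peaks (0.547%) in replicate 1 and 8 (1.09%) in replicate 2. In narrower peaks these were 216 (3.96%) and 294 (5.39%). Among peaks wide in 1 list they were 19 (2.02%) and 31 (3.29%).

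At 33 members (4.51%) the summits were over 500 bp apart, near the 4.84% of all replicated peaks, with 2.16% of narrower peaks and 20.6% of peaks wide in 1 list only. The largest distance, 2753 bp, was on chromosome 1 from 203766540 to 203768827. There the replicate 2 partner began at 203764753 and had its summit in the part outside the replicate 1 peak. This partner was shared with a neighbouring member, whose own summits lay 27 bp apart and whose fold enrichments were 3.43 and 3.45. On chromosome 22, a member from 45402536 to 45406583 had its summit at 81.7% of its width in replicate 1 and at 16.9% of the partner's width in replicate 2, 2428 bp away. Its fold enrichments of 7.87 and 7.30 were close, and 2 IDR regions lay over it. Another, on chromosome 1 from 207222684 to 207226941, was 4258 and 3842 bp wide, with summits 1953 bp apart and again 2 IDR regions. In the last 2 cases both libraries called a wide interval but placed its highest point in different parts. They were picked after their values were seen.

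Broad peaks were taller than narrower ones in both libraries. Their median fold enrichment was 8.59 in replicate 1 and 7.10 in replicate 2, against 3.54 and 3.26 in narrower peaks. The ratio of these medians was 2.43 and 2.18, or 2.30 ± 0.175 (SD, n = 2). In fragments at the summit the medians were 107 and 97 for broad peaks, against 35 and 35 for narrower peaks, a ratio of 2.91 ± 0.202 (SD, n = 2). The background recovered at the summit was also higher, at 13.1 and 14.6 fragments for broad peaks against 9.20 and 9.99 for narrower peaks. Its part in the difference in height was not tested. The middle 50% of members held 64.5 to 170 fragments in replicate 1, so the height of a broad peak is measured with less counting error than that of a narrower peak, whose middle 50% held 24 to 47.

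**Figure D3:**
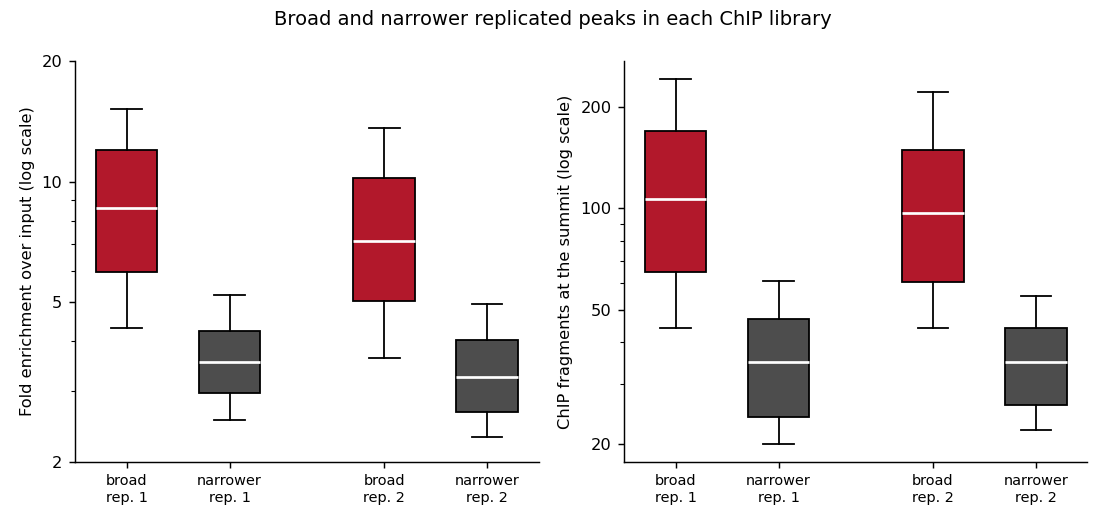
Fold enrichment over input (left, log scale) and ChIP fragments at the summit (right, log scale) of broad and narrower replicated peaks in each ChIP library. Boxes span the 25th to 75th percentile with the median as a white line, and whiskers the 10th to 90th percentile. The broad boxes lie above the narrower boxes in both replicates, with medians of 8.59 and 7.10 against 3.54 and 3.26 for fold.

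In replicate 1, 541 broad peaks (74.0%) had a fold of at least 6, against 290 narrower peaks (5.32%), 14.5% of all replicated peaks and 7.38% of the whole list on these chromosomes. In replicate 2 these were 455 broad peaks (62.2%), against 202 narrower peaks (3.70%), 12.7% of all replicated peaks and 7.01% of the whole list. Seen from the strongest peaks, 281 of the 347 peaks that reached 10 in replicate 1 were broad in both lists (81.0%, interval 76.4% to 85.0%). From 15 upward 78 of 83 were. In replicate 2, 195 of 227 peaks of 10 or more (85.9%, interval 80.7% to 90.2%) and 48 of 52 of 15 or more belonged to a broad pair. A fold enrichment of 10 or more in both lists was reached by 181 of the 731 members, a count not taken for the other classes. By the mean of the 2 lists, 231 broad peaks, 19 narrower peaks and 28 peaks wide in 1 list only reached 10.

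The share of replicated peaks that were broad climbed with height. By mean fold enrichment of the 2 lists it was 1.62% of 4385 peaks below 4, 8.22% of 1800 from 4 to 6, 42.3% of 664 from 6 to 10 and 83.1% of 278 at 10 or more. By mean number of fragments it was 0.375% of 2135 peaks below 30, 3.18% of 2958 from 30 to 50 and 16.9% of 1512 from 50 to 100. It was 58.8% of 294 peaks from 100 to 150 and 88.2% of 228 at 150 or more. Peaks of like height fell in all 3 width classes. Among peaks with a mean fold enrichment from 6 to 10, 281 were broad, 199 narrower and 184 wide in 1 list only. The broad ones in this class held a median of 109 fragments over a replicate 1 background of 13.1, against 51.5 fragments over 5.76 for the narrower ones. Among peaks with 50 to 100 fragments, in turn, the 255 broad ones had a lower replicate 1 background (11.2) and a higher mean fold enrichment (5.69) than the 876 narrower ones (15.8 and 3.45).

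**Figure D4:**
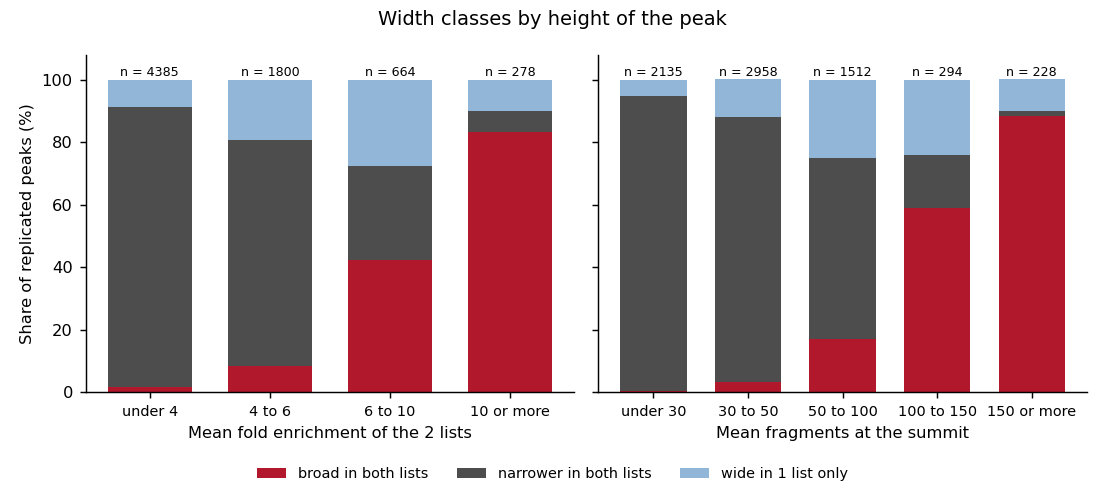
Share of replicated peaks (y axis, percent) that are broad in both lists, narrower in both lists or wide in 1 list only, by mean fold enrichment (left) and by mean ChIP fragments at the summit (right). Numbers above the bars are replicated peaks per class. The broad share goes from 1.62% to 83.1% across the fold classes and from 0.375% to 88.2% across the fragment classes.

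To read width and height from different libraries, width classes were also taken from 1 list and values from the other. A replicate 2 peak was present at 1317 of the 1333 replicate 1 peaks of at least 1000 bp (98.8%, interval 98.1% to 99.3%). Under 1000 bp it was present at 5810 of 12680 (45.8%), and over all replicate 1 peaks on these chromosomes at 7127 of 14013. The replicate 2 peaks under the wide ones had a median fold enrichment of 5.18, against 3.33 under the others. In the other direction, 902 of 906 wide replicate 2 peaks had a replicate 1 peak (99.6%, interval 98.9% to 99.9%), against 6581 of 10771 others (61.1%). The median replicate 1 fold enrichment was 7.76 against 3.65. An overlap of 1 bp was enough, so a wider peak meets a partner more easily. Wide peaks were also taller in their own list, with a median fold 1.92 and 2.00 times that of the others in replicates 1 and 2. The part of either was not tested. Both lists are named as called against input with no replicate number, so the input may be common and the 2 readings not fully separate. In all, 9.51% of replicate 1 and 7.76% of replicate 2 peaks on these chromosomes were at least 1000 bp wide. Of the 1333 in replicate 1, 731 were broad in both lists, 586 had only narrower partners and 16 had none. Of the 906 in replicate 2, 729 overlapped a member, 173 had only narrower partners and 4 had none.

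The 6 members of highest mean fold enrichment were not the widest. The first, on chromosome 4 from 34923172 to 34925274, was 2103 bp wide in each list, with fold enrichments of 30.8 and 32.2 and 175 and 200 fragments. A chromosome 8 peak, from 81876591 to 81878262, reached 30.1 and 23.7. The peak on chromosome 17 from 37616097 to 37619506 was 3410 and 3000 bp wide and reached 28.2 and 24.4, with the most fragments of any member in replicate 1, at 342. The chromosome 22 peak, from 35626468 to 35627811, differed most between the lists among these 6, at 28.4 and 17.9. The remaining pair, spanning 17215588 to 17216993 on chromosome 5 and 29412078 to 29413931 on chromosome 8, had 22.7 ± 2.61 and 22.4 ± 0.399 (SD, n = 2 each). In 5 of the 6, the background was under 7 fragments in both lists. Their widths, apart from the chromosome 17 peak, ran from 1344 to 2103 bp. Within the broad set, rank correlations of width were modest, with a Spearman's rho of 0.35 and 0.41 with fold enrichment and 0.43 and 0.35 with fragments in replicates 1 and 2 (n = 731 members of the same libraries, a description).

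At the other end, 48 members (6.57%) had a fold enrichment under 4 in both lists, against 3294 narrower peaks (60.4%). The 71 members with a mean under 4 had more fragments (median 62.0) than the 3931 narrower peaks of that class (36.0), over a higher background, at 17.7 and 19 against 11.2 and 12. The lowest of all, on chromosome 6 from 58778117 to 58779304, had fold enrichments of 1.52 and 1.36 with 336 and 335 fragments over a background of 220 and 245. No other member had a replicate 1 background above 34.8. Its summit was at the same base in both lists, 5 other replicate 1 peaks lay within 5 kb, and it was not in the IDR list. The next 5 were 2 peaks of chromosome 1, from 153939614 to 153940736 and from 224200298 to 224201307, and 3 of chromosome 7, from 148822617 to 148824556, from 10979260 to 10980895 and from 89974934 to 89976348. They had mean fold enrichments of 2.21 to 2.59 over replicate 1 backgrounds of 20.4 to 30.9 fragments. In replicate 1, all 6 members of lowest fold thus stood on a higher background than the median broad peak (13.1). In replicate 2 this held for 5 of the 6, and the chromosome 7 peak from 10979260 to 10980895 had 13.2, against a median of 14.6.

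Broad peaks differed widely in the background recovered at the summit. The smallest values, 4.37 and 4.87 fragments, were shared by 11.4% and 11.6% of broad peaks and 18.1% and 18.3% of narrower peaks. A value shared by so many peaks need not be the input beneath each. At 79 members the background was at the smallest value of both lists. These had medians of 45.0 and 56.0 fragments and fold enrichments of 8.56 and 9.71, the only one of 4 background classes with the higher median fold in replicate 2. The 173 other members with a replicate 1 background below 10 had 8.56 and 7.83. Between 10 and 20 there were 377 members with 8.78 and 6.84, and at 20 or more 102 members with 7.46 and 5.81. Fragments climbed across the same classes, with replicate 1 medians of 45.0, 67.0, 135 and 187. Summit distance shrank as fragments grew, with medians of 85, 47, 23 and 18 bp. Fold enrichment is computed on the background, so classes of background and fold are linked by construction.

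Replicate 1 gave the higher fold enrichment at 599 of 731 broad peaks (81.9%, interval 79.0% to 84.7%), against 3528 of 5454 narrower peaks (64.7%) and 66.3% of all replicated peaks. It also held more fragments at 543 broad peaks (74.3%), against 2673 narrower peaks (49.0%). The median log2 ratio of fold, replicate 2 over replicate 1, was -0.26 in broad peaks and -0.13 in narrower peaks. Over the members, Spearman's rho between the lists was 0.91 for fold and 0.97 for fragments, and 0.95 for the background. Both lists are named as called against input with no replicate number, so the input may be common to them.

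The log2 ratio went beyond 1 on either side at 4 members. A chromosome 5 peak, from 140698089 to 140701237, had fold enrichments of 11.3 and 4.97, with 122 and 95 fragments over unequal backgrounds of 9.86 and 18.3. A chromosome 13 peak, from 97876413 to 97878141, went the other way, at 8.09 and 16.5, with 48 and 100 fragments over equal backgrounds of 5.06 and 5.12. Its summits were 110 bp apart. The peak on chromosome 1 from 231556489 to 231558603 had 4.86 and 2.19, and the peak on chromosome 6 from 170101596 to 170103157 had 8.40 and 4.18. Next came a chromosome 8 peak, from 28349810 to 28351334, with 7.10 and 3.60. The chromosome 1 peak with summits 2753 bp apart followed, with 6.75 and 3.45, the latter read at the summit of the partner that it shares with a neighbour. Of these 6, the chromosome 13 and chromosome 6 peaks differed clearly in fragments, at 48 against 100 and 162 against 101. In the other 4 the background differed by more than the fragments, in ratio. The summits of these 4 lay 293, 647, 226 and 2753 bp apart, in the order given. Fragments and background were thus read at different positions in the 2 lists.

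The IDR list, an optimal set from an irreproducible discovery rate procedure, which aims at regions of like rank in replicates, held most broad peaks. An IDR region overlapped 658 of 731 members (90.0%, interval 87.6% to 92.1%), against 1845 of 5454 narrower peaks (33.8%, interval 32.6% to 35.1%). Among all replicate 1 peaks the share was 33.4%, and among all replicated peaks 42.9%. From the other side, 662 of 4261 IDR regions on these chromosomes (15.5%) had a broad peak, and so did 98 of the 100 of highest IDR signal, 363 of the top 500 and 511 of the top 1000. The median IDR signal, whose scale the header does not name, was 354 over broad peaks and 195 over narrower peaks. Over 658 members it followed fragments (rho 0.88) more closely than fold (0.57) or width (0.46), as a description within these libraries. The share in the list was higher for broad peaks in each class of fold and of fragments. The fold classes are not matched in fragments, as broad peaks held more in each. Their medians were 62.0 against 36.0 in narrower peaks below a fold of 4, and 177 against 98.5 from 10 upward. A wider peak also meets an IDR region more easily, since an overlap of 1 bp was enough. The part of either was not tested. Below a mean fold of 4 the share was 84.5% of broad peaks, against 33.8% of narrower peaks, and from 4 to 6 it was 83.1% against 29.3%. These 2 classes hold most narrower peaks, and the difference there was close to that over all of them. From a fold of 6 to 10 it was 88.3% of broad peaks, against 59.3% of narrower peaks, and from 10 upward 98.3% against 84.2%. By fragments it was 53.2% against 36.9% from 30 to 50 and 90.6% against 64.3% from 50 to 100. It was 100% of broad peaks, against 86.0% of 50 narrower peaks, from 100 to 150 fragments. Below 30 fragments 4 of 8 broad peaks were in the list, against 311 of 2014 narrower peaks, and from 150 upward 200 of 201, against 3 of 4.

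IDR regions had a size of their own. Over broad peaks they had a median width of 1227 bp, 0.688 times the width of the replicate 1 peak, while over narrower peaks they had 1889 bp, 4.11 times that of the peak. By median, IDR regions over broad peaks were thus shorter than those over narrower peaks. At 7 members 2 IDR regions lay over 1 broad peak.

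The 73 members outside the IDR list were weaker than the 658 inside it. They had medians of 42.0 and 44.0 fragments, against 117 and 105 inside, over backgrounds of 5.23 and 5.53, against 14.1 and 15.4. Fold enrichment differed less, at 5.95 and 5.79 outside and 8.91 and 7.31 inside, and 37 of the 73 had a mean fold of 6 or more. The highest was on chromosome 18 from 52434229 to 52435342, with 10.8 and 11.2 and summits 5 bp apart. It was followed by a peak spanning 184771041 to 184772796 on chromosome 1, with 9.61 and 12, and one spanning 85743315 to 85744557 on chromosome 2, with 11.7 and 9.35. Chromosome 5 held 2 more, at 92281558 to 92282690 with 11.0 and 9.71 and at 127003197 to 127004469 with 9.86 and 10.0. The last of the 6 spanned 1363822 to 1365519 on chromosome 20, with 8.0 and 11.4. All 6 had at most 95 fragments in either list, and 4 stood on the smallest background of both lists.

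Broad peaks were found on all 22 autosomes, in proportions near those of all replicated peaks. They made up 7.36% of replicated peaks on chromosome 3 (29 of 394, interval 4.98% to 10.4%), the lowest share, and 17.2% on chromosome 22 (16 of 93, interval 10.2% to 26.4%), the highest. The intervals of all 22 chromosomes, and of both arms of chromosome 1, held the 10.3% of all autosomes. Chromosome 17 had 14.0% (42 of 301, interval 10.2% to 18.4%) and chromosome 19 had 13.3% (50 of 377, interval 10.0% to 17.1%). The largest numbers lay on chromosomes 1, 7 and 12, with 90, 61 and 60 broad peaks, at shares of 10.3%, 9.92% and 9.40%. On chromosome 7 their median fold enrichment was 6.36 and 5.56 over a background of 16.4 and 15.9, and on the long arm of chromosome 1 it was 6.80 and 5.43 over 16.4 and 19.8. On the short arm of chromosome 1 it was 9.98 and 8.14 over 12.9 and 14.3. Copy number was not measured here, and its part in these backgrounds was not tested.

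**Figure D5:**
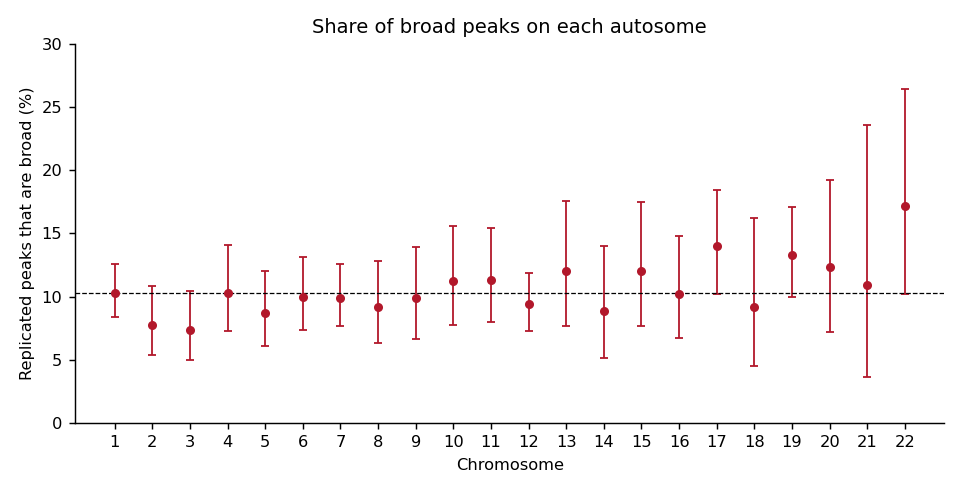
Share of replicated peaks that are broad (y axis, percent) on each autosome (x axis). Points are shares, bars their exact Clopper-Pearson 95% intervals, and the dashed line is the 10.3% of all autosomes. Shares run from 7.36% on chromosome 3 to 17.2% on chromosome 22, with intervals that overlap one another.

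Broad peaks mostly stood apart from each other. The median distance to the nearest other broad peak was 851 kb, and 56 members (7.66%) had one within 50 kb, while 27 (3.69%) had one within 10 kb. Of the narrower peaks, 9.50% had a broad peak within 50 kb and 4.66% within 10 kb. Peaks of any width in replicate 1 lay within 5 kb of 361 broad peaks (49.4%), against 2817 narrower peaks (51.7%) and 52.2% of all replicated peaks. Besides the trio on chromosome 22, 1 more group held 3 broad peaks with gaps of at most 50 kb, on chromosome 1 from 184723802 to 184772796, with mean fold enrichments of 3.85 to 10.8. One pair on chromosome 20, from 45312544 to 45319420, had mean fold enrichments of 11.4 and 21.0.

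The 3 members just inside the threshold of 1000 bp had 1001 or 1002 bp in replicate 2 and spanned 74382860 to 74384131 on chromosome 9, 40118084 to 40119104 on chromosome 17 and 137893111 to 137894161 on chromosome 3, with mean fold enrichments of 5.95, 7.30 and 8.07. The 3 replicated peaks just outside had 998 bp in replicate 2 and spanned 194591542 to 194592566 on chromosome 3, 169010347 to 169011427 on chromosome 5 and 16762231 to 16763642 on chromosome 6, with 6.27, 8.32 and 6.93. All 6 were in the IDR list.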

How the data were processed

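Per the labels, 2 ONECUT2 ChIP libraries and 2 input libraries of 22Rv1 cells were sequenced. BWA 0.7.13-r1126 and Picard are listed without a role, as are MACS2 2.1.1 and the build hg19, per the submitters' processing notes. Caller settings and read totals are not given in the sources used here. Both replicate lists are MACS2 peaks and the remaining list is an IDR optimal set, per the file headers. The authors deposited a fold enrichment (a ratio), a −log10 p-value, a −log10 q-value, a score and a summit offset for each peak, and a score and a signal for each IDR region. Neither list holds a −log10 q below 1.32.

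Fragments were recovered from fold and −log10 p with MACS2's formulas, fold = (fragments + 1)/(background + 1) and a Poisson upper tail. Whole numbers gave −log10 p to within 0.001 for 100% of peaks in each list, and for 1.08% and 0.726% with the tail taken 1 fragment off. The smallest backgrounds were 4.37 and 4.87 fragments. Recovery and overlaps were also run on simulated data, built with the same formulas and with planted overlaps. This checks the code and not the formulas. Median fragments over all peaks were 34 and 30, which limits the precision of each value.

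A member's partner is the replicate 2 peak of at least 1000 bp with the largest overlap, and other peaks were paired with the peak of largest overlap. Starts are counted from 1. Regions were named by rule: the 10 widest, the 6 of highest and of lowest mean fold, the 6 with the largest fold ratio between lists, the 6 of highest fold outside the IDR list and the 3 on either side of the threshold. A rule on sub-summits gave nothing, since each peak has 1 summit. Members and lists were chosen with earlier results of these data known. Genes, recognition sequences and promoters were not analysed here, for want of an annotation of this build. Python 3.11.15, numpy 2.4.6, pandas 2.3.3 and scipy 1.17.1 were used.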

Additional observations from a re-analysis of the deposited data

Results flagged for a closer look

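Peaks of at least 1000 bp in both lists were also found outside chromosomes 1 to 22, in positions that no comparison above uses. There were 31 among 243 replicated peaks (12.8%, exact Clopper-Pearson 95% interval 8.84% to 17.6%), against 10.3% on chromosomes 1 to 22. On chromosome X there were 8 among 90 replicated peaks, with fold enrichments of 9.41 to 22.9 in replicate 1 and 8.89 to 18.7 in replicate 2. Unplaced contigs held 19 among 132, with 2.33 to 10.8 and 1.93 to 7.13, and the widest of these spanned 24367 bp in replicate 1. Mitochondrial DNA held 4 among 16, with 1.44 to 2.03 and 1.43 to 1.99. Chromosome Y held 0 among 5.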

How the results depend on the processing

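Of 49 alternative values over 9 results, 24 stayed within 1.5 times the count, the replicate spread or the interval of their result, and 25 moved. Some of the 24 could not differ, because each peak has 1 row and 1 summit. These were the count by rows, the summit of most fragments and most alternatives for summits per peak. A turn of direction was not scored. The causes were not tested, except that a stricter width leaves fewer peaks by construction. The number of broad peaks (731) was 1128, 469 and 269 with widths of at least 800, 1200 and 1500 bp, and 906 to 1333 from 1 list alone, with 1333 when replicate 2 was left out. The fold ratio of broad to narrower peaks (2.43 in replicate 1, 2.18 in replicate 2) was 3.06 and 2.77 for fragments, 3.07 and 2.84 with broad peaks of at least 1500 bp, and with −log10 q of at least 5 it was 2.08 and 1.85. From 1 list alone it was 1.92 and 2.00. In alternatives chosen after seeing the data it was 2.13 and 1.56 with width from the other list, and 1.60 and 1.65 among peaks with 50 to 100 fragments. Summits per peak (1) came to 0.639 per kb. The share in the IDR list (90.0%) was 65.4% with a reciprocal overlap of 50% and 96.7% for peaks of at least 1500 bp. Among replicated peaks of fold 6 or more in both lists, broad shares were 48.5% on chromosome 3, 64.0% on 19 and 80.0% on 22 (62.5% over all autosomes). With broad peaks of at least 1500 bp they were 2.03%, 5.84% and 9.68%. From 1 list alone the share was taken over all its peaks, replicated or not, that were at least 1000 bp wide. It was 6.29% to 7.27% on chromosome 3, 10.4% to 11.0% on 19 and 13.1% to 14.1% on 22. The mean over sub-summits was not run, since each peak has 1. Start sites were not run. No paired analysis was possible because the deposited values are ratios of a ChIP library to an input background that is not given by input library.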
